A study of Mus musculus with 6 samples.

Results

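The kinesin superfamily genes were taken from the deposited expression table as the protein-coding genes whose symbol begins with Kif or Kifc followed by a number, which gave 40 of the 25631 listed genes. RNA was sequenced from oocytes of 14-month-old mice that had been primed with equine chorionic gonadotropin, and the oocytes were collected by puncturing large antral follicles. In the aminophylline group (3 libraries) the drinking water held 4 mM aminophylline for 1 week, after which plain water was given for 3 weeks, and the control group (3 libraries, labelled aged and untreated) came from mice of the same age that drank water without it. All animals were naturally aged ICR mice. The numbers of mice and oocytes behind a library are not stated, so p-values measure only the spread between these libraries, which may be technical. Aminophylline is a theophylline derivative that inhibits phosphodiesterases, the enzymes that break down cAMP. The comparison asks whether the oral drug changed the transcripts of these motors in aged oocytes.

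Kinesins are motor proteins that use ATP to walk along microtubules or to take them apart at their ends. In a dividing cell they slide and bundle spindle microtubules, move chromosomes and build the midzone where the cell is cut, and in other cells they carry vesicles, organelles and ciliary components. The oocyte assembles its meiotic spindle without centrosomes, and it stores much of the mRNA that it will use during maturation and early cleavage, so the level of an mRNA in it is not a measure of motor activity.

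The motor domain of most kinesins binds ATP through a short loop, the P-loop or Walker A motif. The stretches below show that loop in the coding strand of the members with the highest levels or the largest differences, because it lies in the motor domain and shows which members are hard to tell apart. Each reads 5′ to 3′, and the 24 capitals mark the loop.

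Kif22: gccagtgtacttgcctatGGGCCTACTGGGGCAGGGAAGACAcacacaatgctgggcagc
Kif17: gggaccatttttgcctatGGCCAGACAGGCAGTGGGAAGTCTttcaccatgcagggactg
Kif23: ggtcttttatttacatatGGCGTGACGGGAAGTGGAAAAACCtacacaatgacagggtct
Kif3a: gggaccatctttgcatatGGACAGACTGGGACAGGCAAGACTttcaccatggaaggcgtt
Kif14: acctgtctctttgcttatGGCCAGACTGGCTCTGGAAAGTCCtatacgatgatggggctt
Kifc1: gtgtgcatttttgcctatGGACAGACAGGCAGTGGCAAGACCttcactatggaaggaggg
Kifc5b: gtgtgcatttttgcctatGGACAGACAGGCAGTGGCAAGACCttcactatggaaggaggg

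On the GRCm38 build, in GENCODE M21 transcripts, the capitals lie at chr4:138268984-138269007 on the plus strand in exon 2 of Kif17, at chr9:61937178-61937201 on the minus strand in exon 5 of Kif23 and at chr11:53578861-53578884 on the plus strand in exon 3 of Kif3a. Those of Kif14 lie at chr1:136471546-136471569 on the plus strand in exon 2. Those of Kif22 cross the junction of exons 3 and 4 on the minus strand, within chr7:127034025-127034139. Those of Kifc1 lie at chr17:33883384-33883407 on the minus strand in exon 7, and those of Kifc5b at chr17:26924480-26924503 on the plus strand, also in exon 7. The loop was found in 37 of the 39 members with a complete coding transcript, with no match in Kif26a and Kif26b, and it was found in 142 of 21526 coding genes searched in the same way (0.66%). Among 35 members compared, 34 loop sequences were distinct, and 8 of the 24 positions held a single base in all of them. The one repeated loop is shared by Kifc1 and Kifc5b, whose stretches were identical at 60 of 60 bases, whereas Kifc1 and Kifc3 were identical at 41 of 60.

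Of the 40 members, 20 reached 1 FPKM in 3 or more libraries and were tested, among 10340 genes that did so. FPKM scales the sequenced fragments of a gene to its length and to the depth of the library, so it compares levels between genes per length. For some members the length behind the FPKM was far above that of the GENCODE M21 transcript used here. It was 19187 against 5593 bases for Kif24 and 7189 against 2178 for Kif3a. The order of the members and the ratios between them depend on these lengths. The members covered a wide range, from a mean of 137.4 FPKM for Kif22 over the 6 libraries to 0.993 FPKM for Kif24 among those tested. Kif22, Kif17 and Kif23 together held between 68.9% and 75.2% of the summed FPKM of all members in a library.

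Kif22, a chromokinesin that binds DNA and pushes chromosome arms away from the poles, was the most abundant member. It stood at 103.3, 125.6 and 162.5 FPKM in control libraries 1 to 3 and at 137.8, 144.9 and 150.5 FPKM in aminophylline libraries 1 to 3. The aminophylline values lay within the range of the control values. Kif17, a homodimeric motor of the kinesin-2 family known for transport in dendrites and cilia, stood at 74.1, 80.9 and 94.3 FPKM in control and 89.3, 111.9 and 96.1 in aminophylline libraries. The highest control library exceeded the lowest aminophylline library, so these groups overlapped as well. Kif23, the motor of the centralspindlin complex of the midzone, stood at 60.4, 51.4 and 81.7 FPKM in control and at 62.7, 69.2 and 93.1 in aminophylline libraries, again with overlap. In each of the 6 libraries Kif22 lay above Kif17, Kif17 above Kif23, Kif23 above Kif2c and Kif2c above Kif4.

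Below these, the order was less firm. Kif2c, a depolymerase that corrects wrong attachments at kinetochores, had a mean of 27.3 FPKM, and Kif4, a chromokinesin that also works in the midzone, had 15.1. Kif4 lay above Kif18a, which dampens chromosome movement at the plus ends of kinetochore microtubules (mean 12 FPKM), in 5 of 6 libraries. Kif18a lay above Kif20b, a midzone motor (mean 10.8 FPKM), in 4 of 6. Kif20b lay above Kif3a, the shared subunit of heterotrimeric kinesin-2 (mean 6.45 FPKM), in all 6. From Kif9 (mean 4.74 FPKM) to Kif2a (mean 2.39 FPKM), each member exceeded the next in between 2 and 5 of the 6 libraries, and these neighbours did not separate beyond their spread.

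**Figure D1:**
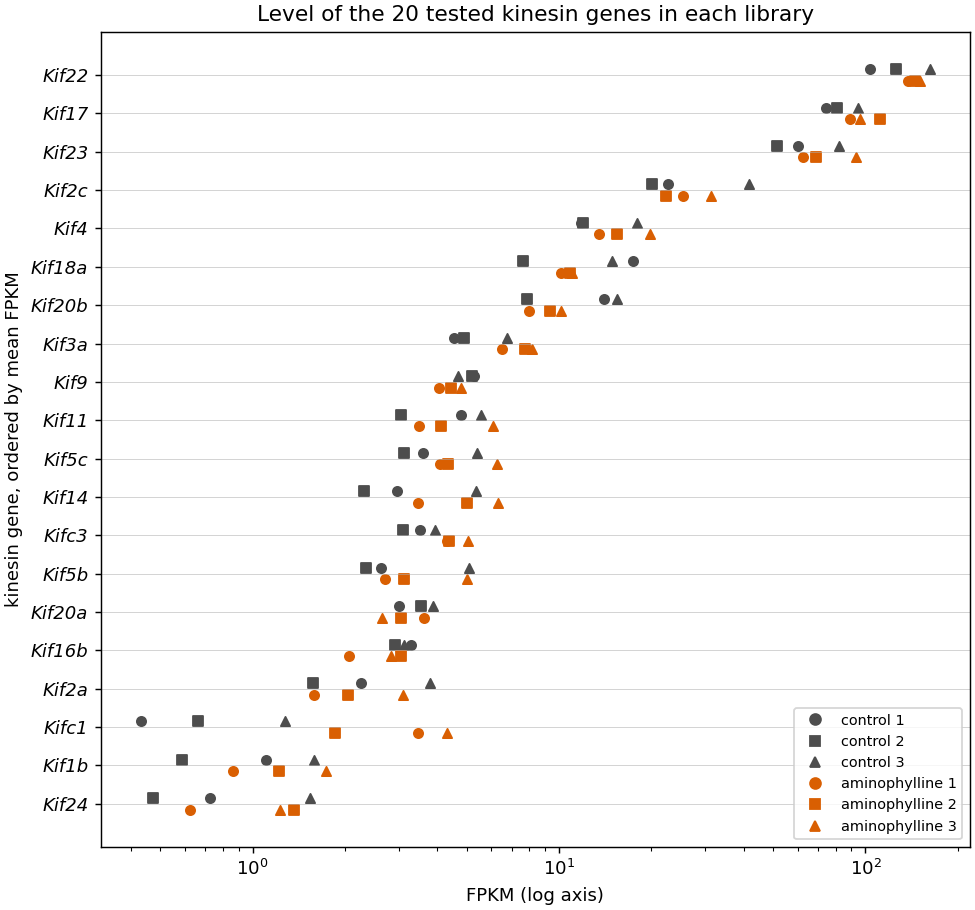
FPKM (log axis) of the 20 tested kinesin genes, ordered by mean FPKM, with a point for each of the 3 control and 3 aminophylline libraries. Kif22, Kif17 and Kif23 stand above the rest in every library, and Kifc1 is the gene whose 3 aminophylline points, from 1.86 to 4.31, lie farthest above its 3 control points, from 0.431 to 1.27.

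No tested kinesin passed an adjusted p of 0.05 between aminophylline and control in the limma fit on log2(FPKM + 1) with Benjamini-Hochberg adjustment over all genes (0 of 20 members), and none of the 10340 genes tested did (0%). At an unadjusted p under 0.05 there was 1 member with a higher level, Kifc1, beside 4.41% of all genes higher, and 0 members with a lower level, beside 2.84% of all genes lower (7.25% in both directions). The 3 libraries of one group lay wholly above those of the other for 2 members, Kifc1 and Kifc3, both higher with aminophylline, and this was so for 7.51% of all tested genes (4.96% lay apart in the other direction, with 0 members). The log2 fold change was above 0 for 13 of 20 members, beside 64.8% of all tested genes, and its median over the members was 0.13, beside 0.10 over all genes. Within the same-numbered pairs of libraries, counted after the values were seen, 8 of 20 members (Kif14, Kif17, Kif23, Kif3a, Kif4, Kif5c, Kifc1 and Kifc3) were higher with aminophylline in 3 of 3 pairs, beside 25.9% of all tested genes, and 0 were lower in 3 of 3, beside 10.5%. In bulk libraries such as these, fewer cells of a type and less RNA per cell cannot be told apart.

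**Figure D2:**
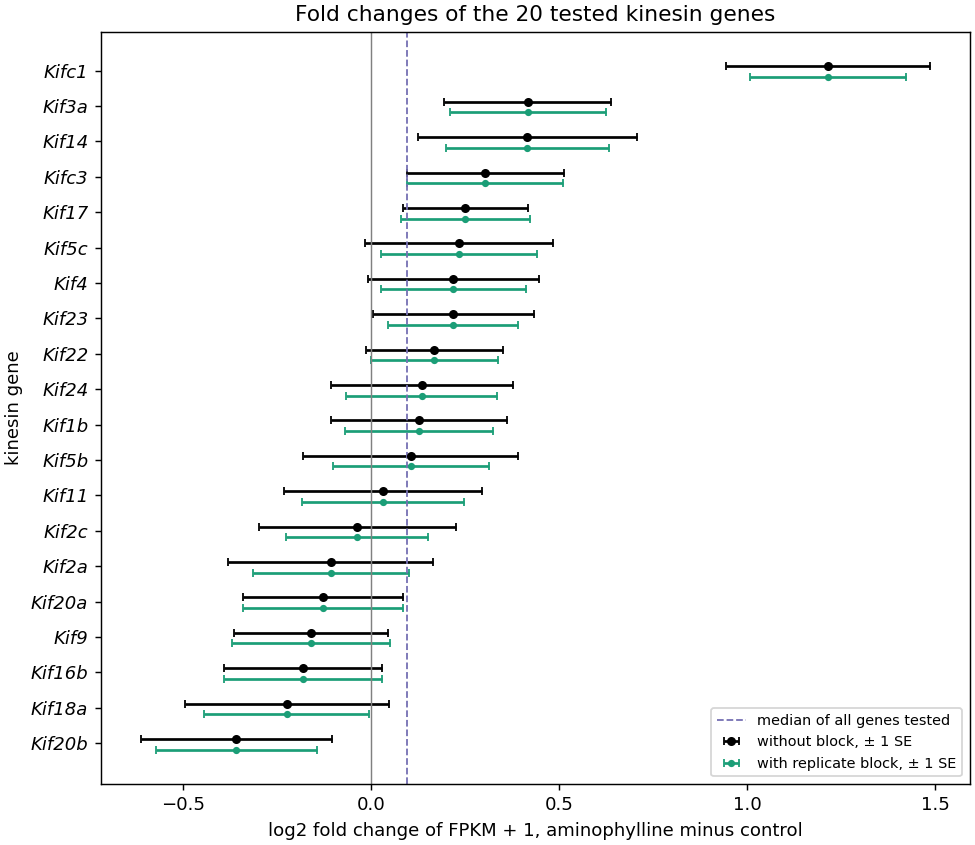
Log2 fold change of FPKM + 1 (aminophylline minus control) of the 20 tested kinesin genes with bars of 1 standard error, from the limma fit without (black) and with (green) the replicate number as a block, and the median of all tested genes as a dashed line. Kifc1 stands at 1.22, and the other 19 genes lie between -0.36 and 0.42.

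Kifc1, a minus-end-directed kinesin-14 that cross-links microtubules and focuses spindle poles, was the only member with a log2 fold change above 0.5. It stood at 0.431, 0.665 and 1.27 FPKM in control and at 3.47, 1.86 and 4.31 FPKM in aminophylline libraries, resting on 34, 22 and 95 reads and on 230, 108 and 309 reads. Every aminophylline library was above every control library, and the lowest values were those of control libraries 1 and 2. The group means were 0.789 ± 0.435 FPKM (SD, n = 3) and 3.21 ± 1.24 FPKM (SD, n = 3), a ratio of means of 4.07. In the limma fit the log2 fold change was 1.22 with a standard error of 0.27, and the adjusted p was 0.651 (unadjusted p = 0.000913). The pseudocount of 1 shrinks the fold change of a gene at this level, which was 1.93 with a pseudocount of 0.1 and 2.08 with limma's voom on the recovered reads. Kifc1 met the filter through the 3 aminophylline libraries and control library 3, since the FPKM of the other 2 control libraries was under 1.

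Whether Kifc1 passed depended on the use of the replicate numbers and, with them, on the scaling between libraries. When the numbers entered the limma fit as a block, the standard error of Kifc1 was 0.21 and the adjusted p was 0.00834, and it was the 1 member that passed, beside 47 of all tested genes (0.455%), 35 of them higher (0.338%). With voom and the block together the adjusted p was 0.00236, and with median centring of the libraries and the block it was 0.174, where 0 of the 10340 genes passed. The log2 fold change of Kifc1 was then 1.13 with a standard error of 0.21, close to the values with the block alone. The unadjusted limma p was 4.03e-06 with the block alone and 0.00027 with centring as well, and the reason for that difference was not tested. With the block, the 6 libraries leave little from which to estimate the spread of a single gene. These p-values therefore lean on the spread that limma shares over genes. Over all alternatives the log2 fold change of Kifc1 ranged from 1.03 to 2.09 and the adjusted p from 0.00236 to 0.999.

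Kifc1 cannot be fully separated from its paralog. The coding sequences of Kifc1 and Kifc5b were identical at 1987 of 2019 aligned bases (98.4%). Of the 2258 windows of 100 bases in the Kifc1 transcript, 536 (23.7%) also occurred in Kifc5b and in no other gene. A read lying wholly within such a window cannot be assigned by its own sequence. The window length was a choice and was not matched to the read length, so 23.7% is not the share of such reads. No other tested member had a window of this length in another gene. The pair of stretches below, from exon 2 of each gene, is the 60-base coding window in which they differ most, and the 11 capitals mark the differing bases. They lie at chr17:33886837-33886896 on the minus strand for Kifc1 and at chr17:26920799-26920858 on the plus strand for Kifc5b.

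Kifc1: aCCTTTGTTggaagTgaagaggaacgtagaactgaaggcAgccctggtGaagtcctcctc
Kifc5b: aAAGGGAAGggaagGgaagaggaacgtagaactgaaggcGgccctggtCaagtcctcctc

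Kifc5b itself was near the limit of detection, with 4, 3 and 17 reads in control and 11, 9 and 26 reads in aminophylline libraries. Its groups overlapped, since control library 3 exceeded aminophylline libraries 1 and 2. As a share of the summed reads of both genes it made up 10.5%, 12% and 15.2% in control and 4.56%, 7.69% and 7.76% in aminophylline libraries, so the counts assigned to the genes did not keep one ratio across the libraries. With the reads of both genes summed, the log2 fold change was 1.20 and the adjusted p 0.651, close to those of Kifc1 alone. The files do not say how reads that fit both genes were assigned.

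**Figure D3:**
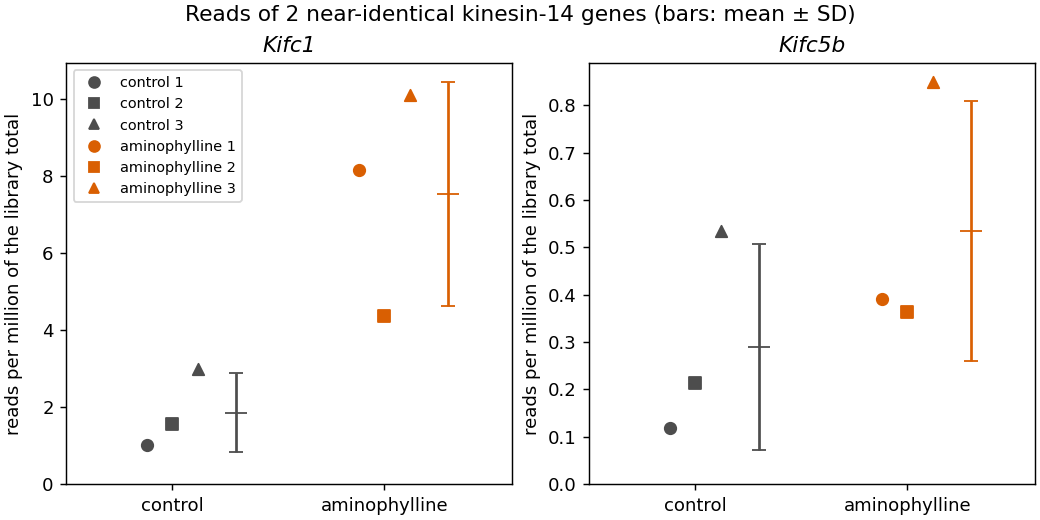
Reads scaled to the library total (RPM) assigned to Kifc1 (left) and to its paralog Kifc5b (right), with a point for each library and the mean ± SD of 3 libraries beside the points. Kifc1 ranges from 1.01 to 2.99 in control and from 4.36 to 10.1 in aminophylline libraries, while Kifc5b stays between 0.119 and 0.85 with overlapping groups, and the scales of the axes differ.

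Among the spindle and chromosome motors, 7 of the 10 listed genes were tested, and their median log2 fold change was 0.03. Kif18a and Kif4 had log2 fold changes of -0.22 and 0.22. That of Kif18a was -0.55 without control library 2 and ranged from -0.55 to -0.0048 over all alternatives. For Kif22 the log2 fold change was 0.17, with a standard error of 0.18 and an adjusted p of 0.805, and it was 0.01 without control library 1 and 0.34 without control library 3. Kif11, the plus-end-directed tetramer that pushes spindle poles apart, stood at 4.78, 3.04 and 5.56 FPKM in control and at 3.50, 4.13 and 6.10 in aminophylline libraries, with a log2 fold change of 0.03. Kif2c and Kif2a, 2 depolymerases of the same family, had log2 fold changes of -0.04 and -0.11, and the ratio of their FPKM stayed between 9.99 and 16.0 with no separation of the groups. Kif15, which works beside Kif11 in many dividing cells, did not meet the filter and lay between 0.213 and 0.527 FPKM.

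The midzone and cytokinesis motors were all tested, and their median log2 fold change was 0.05, with 2 members above 0 and 2 below. Kif14, which works with the bundling protein Prc1 in the last steps of cytokinesis, stood at 2.96, 2.30 and 5.35 FPKM in control and at 3.47, 5.01 and 6.34 in aminophylline libraries. Control library 3 was above aminophylline libraries 1 and 2, and the log2 fold change was 0.42 (standard error 0.29, adjusted p = 0.728). It was 0.22 without control library 2, 0.69 without control library 3 and 0.25 without aminophylline library 3. Kif20b pointed the other way, with 14.02, 7.88 and 15.4 FPKM in control and 8.01, 9.33 and 10.2 in aminophylline libraries. Its log2 fold change was -0.36 (adjusted p = 0.733). The shallowest library, control 2, lay below all the aminophylline libraries, and without it the log2 fold change was -0.63 (limma adjusted p = 0.183). Over all alternatives that of Kif20b ranged from -0.63 to -0.19. For Kif23 the log2 fold change was 0.22 (standard error 0.21, adjusted p = 0.788). Its centralspindlin partner Racgap1 stood at 24.84, 26.93 and 27.36 FPKM in control and at 21.66, 20.57 and 24.8 in aminophylline libraries. These groups lay apart by a narrow margin, with aminophylline lower (log2 fold change -0.23, limma adjusted p = 0.742). Of all tested genes, 4.96% lay apart in that direction. The fold change of Kif23 on the log2 scale was 0.07 without control library 2, without control library 3 it was 0.40, without aminophylline library 1 it was 0.34 and without aminophylline library 3 it was 0.06. The ratio of Kif23 to Racgap1 overlapped between groups, from 1.91 to 2.99 in control and from 2.89 to 3.75 in aminophylline libraries. Kif20a, which brings the chromosomal passenger complex to the midzone, had a log2 fold change of -0.13.

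Among the cargo transport motors, 6 of the 16 listed genes were tested, 5 of them with a log2 fold change above 0, and the median was 0.18. Kif3a stood at 4.54, 4.90 and 6.78 FPKM in control and at 6.53, 7.77 and 8.18 in aminophylline libraries. Aminophylline libraries 2 and 3 lay above all controls, control library 3 lay above aminophylline library 1, and the log2 fold change was 0.42 (standard error 0.22, adjusted p = 0.705). With the replicate block the adjusted p was 0.364 (limma, unadjusted p = 0.0548), with the aminophylline library higher in 3 of 3 pairs. Its partner subunit Kif3b was far lower in every library, the FPKM of Kif3a being 6.43 to 15.6 times that of Kif3b, and Kifap3, which links that motor to cargo, lay between 0.253 and 0.396 FPKM.

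Kifc3, another kinesin-14, is named here because its groups did not overlap. It stood at 3.51, 3.09 and 3.95 FPKM in control and at 4.30, 4.36 and 5.04 in aminophylline libraries, with a log2 fold change of 0.30 (adjusted p = 0.728). No use of strand in counting is stated, so reads of overlapping genes cannot be told apart where they overlap. Kif18a overlaps Mettl15, Kif2a overlaps Dimt1, Kif20a overlaps Brd8 and Cdc23, Kif3a a non-coding gene and Kif14 a pseudogene. Kif5b and Kif5c, the heavy chains of conventional kinesin, had log2 fold changes of 0.11 and 0.23 and kept a Kif5c to Kif5b ratio between 1.07 and 1.51. Kif5a, the heavy chain best known from neurons, had 13 reads in one aminophylline library and at most 2 in the others. Kif1b and the endosomal motor Kif16b had log2 fold changes of 0.13 and -0.18.

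Of the 6 cilium and hedgehog motors, 3 were tested, with a median log2 fold change of 0.14. For Kif17 the log2 fold change was 0.25 (standard error 0.17, adjusted p = 0.728) and 0.16 without aminophylline library 2, and its FPKM exceeded that of Kif3a between 11.8 and 16.5 times. Kif9, a motor of motile cilia and sperm tails, had the smallest ratio of highest to lowest level among the tested members (1.3, from 4.06 to 5.28 FPKM) and a log2 fold change of -0.16. Kif24, which trims microtubules at the mother centriole, had a log2 fold change of 0.14 at a mean of 0.993 FPKM. Kif7, the scaffold of hedgehog signalling, had 0, 0 and 1 reads in control and 7, 0 and 1 in aminophylline libraries.

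The 20 members that did not meet the filter were low in both groups, and 18 of them stayed under 1 FPKM in every library. The exceptions were Kif18b and Kif3b, whose highest values, 1.34 and 1.06 FPKM, were those of control library 3. None of the 20 had groups that lay apart. Of all members, 8 had at most 3 reads in at least 1 library and 5 (Kif5a, Kif6, Kif7, Kif19b and Kifc2) had at most 3 reads in at least 4 libraries, where a difference was not detectable at this depth. Kifc2, a kinesin-14 found mainly in nervous tissue, had 1 read in each of 3 libraries and 0 in the others.

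Libraries of one group differed from each other in their level of most members. The median deviation of the tested members from their own means, on the log2(FPKM + 1) scale, was -0.18, -0.37 and 0.26 in control libraries 1 to 3 and -0.15, 0.03 and 0.29 in aminophylline libraries 1 to 3. For 16 of the 20 members the highest value was in control library 3 (7 members) or aminophylline library 3 (9 members), and for 12 of 20 the lowest was in control library 2. Of all tested genes, 49.0% were highest in one of these 2 libraries and 29.0% were lowest in control library 2. The same medians over all tested genes were -0.10, -0.11, 0.11, -0.04, 0.06 and 0.08. Control library 2 was also the shallowest, with 14112341 reads beside 24773273 to 33641283 in the other libraries, and the part of depth in these values was not tested. Without control library 2, the median log2 fold change of the members was -0.05 in place of 0.13, and without control library 3 it was 0.34.

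**Figure D4:**
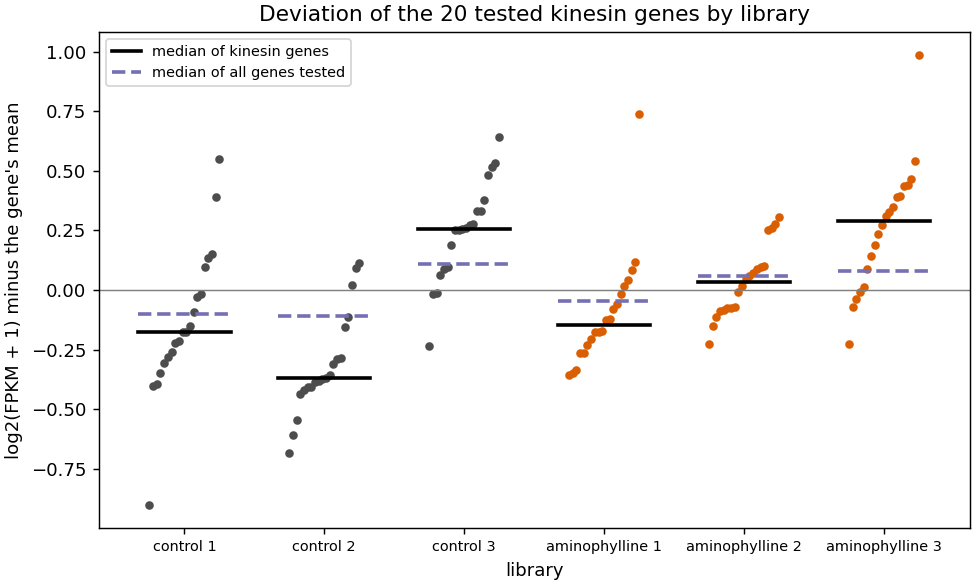
Deviation of log2(FPKM + 1) of each of the 20 tested kinesin genes from its own mean over 6 libraries, with the median of the kinesin genes (black) and of all tested genes (dashed) per library. The kinesin medians of control library 3 (0.26) and aminophylline library 3 (0.29) stand above the others, and that of control library 2 (-0.37) is the lowest.

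The libraries carried the markers of oocytes. Those of other cells were low apart from the macrophage gene C1qb in all libraries and further macrophage genes in control library 1. The summed FPKM of 12 oocyte genes, with Zp3 the highest, was 10750 to 16450 in control and 13260 to 15530 in aminophylline libraries. The 12 granulosa and cumulus genes summed to between 16.0 and 23.9 FPKM, with 9 of them under 1 FPKM throughout and Amh at 0 reads in 5 libraries. Theca and stroma genes summed to at most 1.598 FPKM, 3 of 4 endothelial genes that were listed to at most 8.89 FPKM, and 4 of 5 erythrocyte genes to at most 0.585 FPKM. The 12 macrophage genes summed to 257.4 FPKM in control library 1 and to between 81.95 and 103.3 FPKM in the other 5. In those 5, C1qb made up nearly the whole sum, while C1qa was at most 0.0302 FPKM and C1qc was at 0. Lyz2 had 2362 reads in control library 1 and at most 15 in the others. When control library 1 was left out, Kifc1 differed by 1.07 on the log2 scale (adjusted p = 0.984 in the limma fit) and the median of the members was 0.09.

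The proteins that work with kinesins were looked at as a list of 14, of which Mapk8ip1 was not listed in the table. Of the other 13, 7 were tested, 5 with a log2 fold change above 0 and 2 below, with a median of 0.06 and none at an unadjusted p under 0.05 in the limma fit. Prc1, which bundles midzone microtubules, was the most abundant, at 64.2, 56.2 and 89.3 FPKM in control and 66.3, 72.1 and 90.4 in aminophylline libraries. Cenpe, the kinetochore kinesin whose symbol does not begin with Kif, stood between 13.8 and 19.9 FPKM with a log2 fold change of 0.00. Klc1, the light chain of conventional kinesin, lay between 2.19 and 4.16 FPKM, while Klc2, Klc3 and Klc4 stayed under 1 and were not tested. Klc4 had 6, 9 and 10 reads in control and 26, 32 and 83 in aminophylline libraries, and Klc3 had 0, 0 and 2 against 10, 6 and 4, so the groups of both lay apart. The control reads of Klc3 were under the 3 taken as barely measurable. Shares of genes with groups apart were taken over the tested genes only (7.51% higher), to which neither belongs. With no filter on low values Klc4 and Klc3 were at an unadjusted p of 0.0254 and 0.00975 (adjusted p = 0.836 for both in the limma fit). No share of all genes at an unadjusted p under 0.05 was taken in that fit.

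Dynein and its activator dynactin, which walk in the opposite direction to most kinesins, were listed with 24 genes, of which 19 were tested. Their median log2 fold change was 0.07, with 11 above 0 and 8 below, and none passed an adjusted p of 0.05. At an unadjusted p under 0.05 there were 2 higher, Dynll1 (log2 fold change 0.49) and Dctn3 (log2 fold change 0.37), and 0 lower, beside the shares of all genes given above. Dynll1, a light chain shared with other complexes, stood at 191.1, 280.4 and 200.9 FPKM in control and at 338, 318.6 and 280.5 in aminophylline libraries, where the highest control library lay just under the lowest aminophylline library. With the replicate block, which raised the share of all genes at an unadjusted p under 0.05 to 9.88% higher and 4.3% lower, Dctn4 and Dynlt1b were added on the lower side, at log2 fold changes of -0.42 and -0.36.

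The annotation in the table named microtubule binding for 40 of the 40 members, among 242 listed genes with that term, and microtubule motor activity for 39, among 49. The term ATP hydrolysis activity was given for 35 of the members and 243 listed genes.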

How the data were processed

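RNA-seq libraries of oocytes (3 control, 3 aminophylline) were made with a VAHTS Universal V6 kit. The authors deposited FPKM values per gene, with no further scaling between libraries. The genome build in the submitters' processing notes is GRCm38 (mm10), and the aligner and counting program are not given in the sources used here. Whole reads behind each FPKM value were recovered from the ratios between libraries, and 100% of values came out whole within 0.0001 of a read. Totals ranged from 14112341 to 33641283 reads, of which 99.573% to 99.631% lay on listed genes. The amount taken as barely measurable was 3 reads, which covers counting error only.

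Groups were taken from the labels. The 10340 genes that reached 1 FPKM in 3 or more libraries were fitted with limma 3.58.1 in R 4.3.3 (moderated variance with a trend) on log2(FPKM + 1), two-sided, with Benjamini-Hochberg adjustment over all of them and a threshold of 0.05. An exact permutation test of 3 against 3 libraries cannot go below 0.1 and was not used. The code was tested on simulated data. Full statistics were given for tested members with an unadjusted p under 0.05 with or without the block, the 3 highest in mean FPKM, and in each role group the highest and the one with the largest absolute log2 fold change. Other genes were described from their lists, and Kifc3 and Kif20b were singled out after their values were seen. The members, role groups and lists were chosen with earlier results of these data known.

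The pairing rests on the replicate numbers (1, 2 and 3) that the labels give in each group. The deviation from the group mean, over the tested genes, correlated between libraries of the same number at 0.138, 0.14 and 0.552, and between control library 2 and aminophylline library 1 at 0.423. No source says that a number marks a shared batch or animal. Coding sequences came from GENCODE M21 and gene positions from RefSeq, both on GRCm38. The alternatives were other pseudocounts, filters, scalings and libraries left out, the block, library weights, an unmoderated model and voom on the recovered reads. Added after the data were seen were the block with voom, the block with median centring, and the sum of Kifc1 and Kifc5b. Python 3.11.15 was used for the other steps.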

Additional observations from a re-analysis of the deposited data

How the results depend on the processing

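Without the replicate block no kinesin passed an adjusted p of 0.05 under any alternative run, 0.1 as the threshold included. With the replicate block 1 passed (Kifc1, log2 fold change 1.22, adjusted p = 0.00834), as with voom and the block (1 member, log2 fold change 2.09). With median centring and the block 0 members passed (Kifc1, limma adjusted p = 0.174). At the adjusted threshold the pairing changed no other call of a member. At an unadjusted p under 0.05, the members higher were 0 with a mean FPKM of at least 5, which leaves out Kifc1, 2 in the unmoderated model (Kifc1 and Kifc3), 3 with library weights (Kifc1, Kif3a and Kif17) and 3 with voom and the block (Kifc1, Kif3a and Kif14). Members lower numbered 1 with centring and the block (Kif20b). Leaving out 1 library gave 1 to 3 members higher and 0 to 2 lower. The 3 higher came without control library 3 (Kifc1, Kif3a and Kif14) and the 2 lower without control library 2 (Kif18a and Kif20b). The median log2 fold change of the members ranged from -0.05 to 0.34 when 1 library was left out and was -0.0017 after quantile normalization. The largest shift of the median of all genes was to 0.01 after median centring or quantile normalization, from 0.10.

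Partner genes at an unadjusted p under 0.05 numbered 2 with no filter (Klc3 and Klc4) and 1 with library weights, and 0 to 1 with 1 library left out (1 without control library 3). Dynein and dynactin genes numbered 2, but 1 after median centring, 3 with no filter, 3 after quantile normalization, 4 with library weights, 4 with the replicate block and 0 to 6 with 1 library left out (0 without control library 1, aminophylline library 1 or aminophylline library 2, 1 without aminophylline library 3, 5 without control library 2 and 6 without control library 3). The cause of these moves was not tested. Shares of all tested genes at this p were taken only in the limma fits without the block (7.25%) and with it (14.2%), both directions together. For the other settings no such share stands beside the counts of members, partners or dynein and dynactin genes. Those counts are not read as a trait of the lists. Kif14, Kif17, Kif22, Kif23, Kif3a and Kifc1, the members given full statistics, kept their direction in every alternative that tested them. Not all other members did so. Over the alternatives the log2 fold change ranged from -0.17 to 0.18 for Kif11 and from -0.23 to 0.28 for Kif2c. For Kif20b it stayed below 0, from -0.63 to -0.19. The count models planned in case the table held counts were not run, since it holds FPKM, and the recovered reads were tested with voom. Depth limits the lowest members, which hold a few reads each.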
